A study of Mus musculus with 2 samples.

Results

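Oxidative phosphorylation genes encode the respiratory chain and ATP synthase of the inner mitochondrial membrane. Here they were taken as the protein-coding autosomal genes of the GENCODE annotation of GRCm38 whose symbols begin with Nduf, Uqcr, Cox4 to Cox8 or Atp5, together with Sdha, Sdhb, Sdhc and Sdhd. This gave 90 of 20780 autosomal protein-coding genes, 44 for complex I, 4 for complex II, 8 for complex III, 17 for complex IV and 17 for complex V. The 44 complex I genes included 8 for assembly factors (Ndufaf1 to Ndufaf8), which help to build the complex and are not part of it. Ndufa4 and Ndufa4l2 were counted with complex I by their symbols, although the Ndufa4 protein is known as a subunit of complex IV. Subunits encoded by mitochondrial DNA were not among the members.

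H3K4me3, a histone mark found around transcript starts, was profiled by CATCH-seq, in which micrococcal nuclease cuts unfixed chromatin and carrier DNA helps the precipitation from few cells. Each library was made from about 3000 group 2 innate lymphoid cells (ILC2s) of the lungs of 8-week-old mice, the study's wild-type strain being C57BL/6J. In the control group the mothers had received PBS with alum before mating and intranasal PBS in pregnancy, and in the other group ovalbumin (OVA) was added to both, which is the study's model of asthma in the mother. The fathers were untreated, and the sex and number of the offspring behind each library were not given in the sources used here. Offspring of control mothers (control offspring) and offspring of asthmatic mothers (OVA offspring) gave 1 library each, so no value had a replicate and no test between the groups was possible. Offspring, dam, sort and library cannot be told apart in any difference given here.

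The deposited data are peak lists, 42126 peaks with a median width of 315 bp in control offspring and 51610 with a median width of 249 bp in OVA offspring. Each peak has a fold (the signal at its summit over the local background) and a −log10 q, the authors' measure of how far the summit stands above that background. The study's reporting summary says that peaks were not called on its ChIP-seq data, although these lists were deposited. The lists hold no read totals, and the total that the reporting summary gives for the ChIP-seq is not split by library. The depth of each library is thus unknown. A gene was called marked when a peak lay within 1000 bp of any of its annotated transcript starts. Of the ILC2 marker genes 8 of 10 were marked in control offspring and 6 of 10 in OVA offspring, where Gata3 and Il7r had no start peak. No T cell, B cell, macrophage or fibroblast marker was marked in either library. Among the markers of other cells, Epcam and Cdh1 of epithelium and Kdr of endothelium were marked in control offspring and Sftpb of epithelium in OVA offspring. The part of such cells in the results below was not tested.

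Complex I takes electrons from NADH and complex II from succinate, and both pass them to ubiquinone. Complex III moves them on to cytochrome c, complex IV reduces oxygen with them, and complex V uses the resulting proton gradient to make ATP. Most nuclear genes for these subunits are used in nearly all cells and have promoters rich in CG pairs, while a few subunits of complex IV exist in a common and a tissue-restricted form. H3K4me3 is known to lie on the nucleosomes that flank active starts and CG-rich promoters.

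Promoters of common and tissue-restricted subunits of complex IV differed in their letters in the way this background describes. The 250 bases before the RefSeq start (GRCm38.p6) follow, 5′ to 3′ on the strand of the gene with every CG pair in capitals, for 3 pairs of isoforms. Cox6b1, Cox7a2 and Cox8a are the common forms. Cox6b2 is known from testis, and Cox7a1 and Cox8b from heart and skeletal muscle.
Cox6b1, chr7:30626115-30626364, minus strand: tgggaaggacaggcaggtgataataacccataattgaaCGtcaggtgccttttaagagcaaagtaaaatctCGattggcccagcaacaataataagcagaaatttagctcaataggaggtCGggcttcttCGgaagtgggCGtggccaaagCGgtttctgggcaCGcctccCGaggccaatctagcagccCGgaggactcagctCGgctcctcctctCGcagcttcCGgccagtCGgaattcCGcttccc
Cox6b2, chr7:4753095-4753344, minus strand: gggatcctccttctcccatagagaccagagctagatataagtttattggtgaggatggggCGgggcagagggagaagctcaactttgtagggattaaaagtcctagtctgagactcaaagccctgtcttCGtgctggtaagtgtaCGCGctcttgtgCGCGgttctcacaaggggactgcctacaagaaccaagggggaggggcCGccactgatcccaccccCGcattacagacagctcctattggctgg
Cox7a2, chr9:79759854-79760103, minus strand: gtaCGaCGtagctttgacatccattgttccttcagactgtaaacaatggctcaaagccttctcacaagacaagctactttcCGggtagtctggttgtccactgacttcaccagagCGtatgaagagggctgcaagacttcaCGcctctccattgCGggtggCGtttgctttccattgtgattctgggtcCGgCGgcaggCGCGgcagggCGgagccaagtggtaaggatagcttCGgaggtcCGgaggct
Cox7a1, chr7:30183921-30184170, plus strand: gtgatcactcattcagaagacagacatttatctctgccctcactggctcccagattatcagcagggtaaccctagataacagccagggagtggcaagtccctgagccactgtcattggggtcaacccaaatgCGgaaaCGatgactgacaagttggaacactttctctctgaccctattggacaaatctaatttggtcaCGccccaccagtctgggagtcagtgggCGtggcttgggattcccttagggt
Cox8a, chr19:7217617-7217866, minus strand: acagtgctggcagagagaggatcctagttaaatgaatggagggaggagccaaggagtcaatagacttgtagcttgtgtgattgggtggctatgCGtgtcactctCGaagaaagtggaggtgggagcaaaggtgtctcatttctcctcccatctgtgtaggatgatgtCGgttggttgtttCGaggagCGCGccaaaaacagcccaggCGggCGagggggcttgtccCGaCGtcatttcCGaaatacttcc
Cox8b, chr7:140900447-140900696, minus strand: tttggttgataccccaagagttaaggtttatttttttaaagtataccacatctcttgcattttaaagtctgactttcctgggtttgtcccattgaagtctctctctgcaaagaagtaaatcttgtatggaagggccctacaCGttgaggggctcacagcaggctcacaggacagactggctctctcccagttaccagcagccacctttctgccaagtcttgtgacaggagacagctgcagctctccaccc
The windows held 14 CG pairs for Cox6b1 against 8 for Cox6b2, 14 for Cox7a2 against 4 for Cox7a1, and 11 for Cox8a against 1 for Cox8b. The common form of each pair was marked in control offspring and the restricted form in neither library.

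In control offspring 82 of the 90 genes (91.1%, exact Clopper-Pearson 95% interval 83.2 to 96.1%) were marked, beside 52.5% of all autosomal protein-coding genes. In OVA offspring 71 (78.9%) were marked, beside 43.7% of all. Intervals here cover counting error over genes only. The 71 genes marked in OVA offspring were all marked in control offspring too, 11 were marked in control offspring only (9.37% of all genes) and 0 in OVA offspring only (0.635% of all genes). The share of genes marked in control offspring that had no start peak in the other list was 13.4% for the 90 genes, beside 17.9% for all genes. These counts changed when both lists were cut to the same length. With the 10000 peaks of highest −log10 p of each, 66 of the 90 were marked in control offspring (33.8% of all genes) and 18 in OVA offspring (9.85%), with 49 in the former only (24.9%) and 1 in the latter only (0.919%).

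The 8 genes marked in neither library were Cox4i2, Cox6a2, Cox6b2, Cox7a1, Cox7b2, Cox8b, Cox8c and Ndufa4l2, which are the 8 tissue-restricted isoforms listed for this comparison. In control offspring the nearest peak to any of their starts lay between 2312 bp for Cox6b2 and 75773 bp for Cox4i2. Cox4i2, an isoform known from lung and from low oxygen, had its nearest peak 75916 bp away in OVA offspring. Ndufa4l2, known as a gene induced by low oxygen, had its nearest peak 2851 bp away in control offspring and 128068 bp away in the other list. Their common counterparts Cox4i1, Cox6a1, Cox6b1, Cox7a2, Cox8a and Ndufa4 were marked, 6 of 6 in control offspring and 5 of 6 in OVA offspring. The 4 restricted isoforms matched to a RefSeq promoter (250 bases before to 50 after the start) had a median of 8.5 CG pairs, the 5 matched counterparts 19, and all 15861 matched autosomal genes 15.

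**Figure D1:**
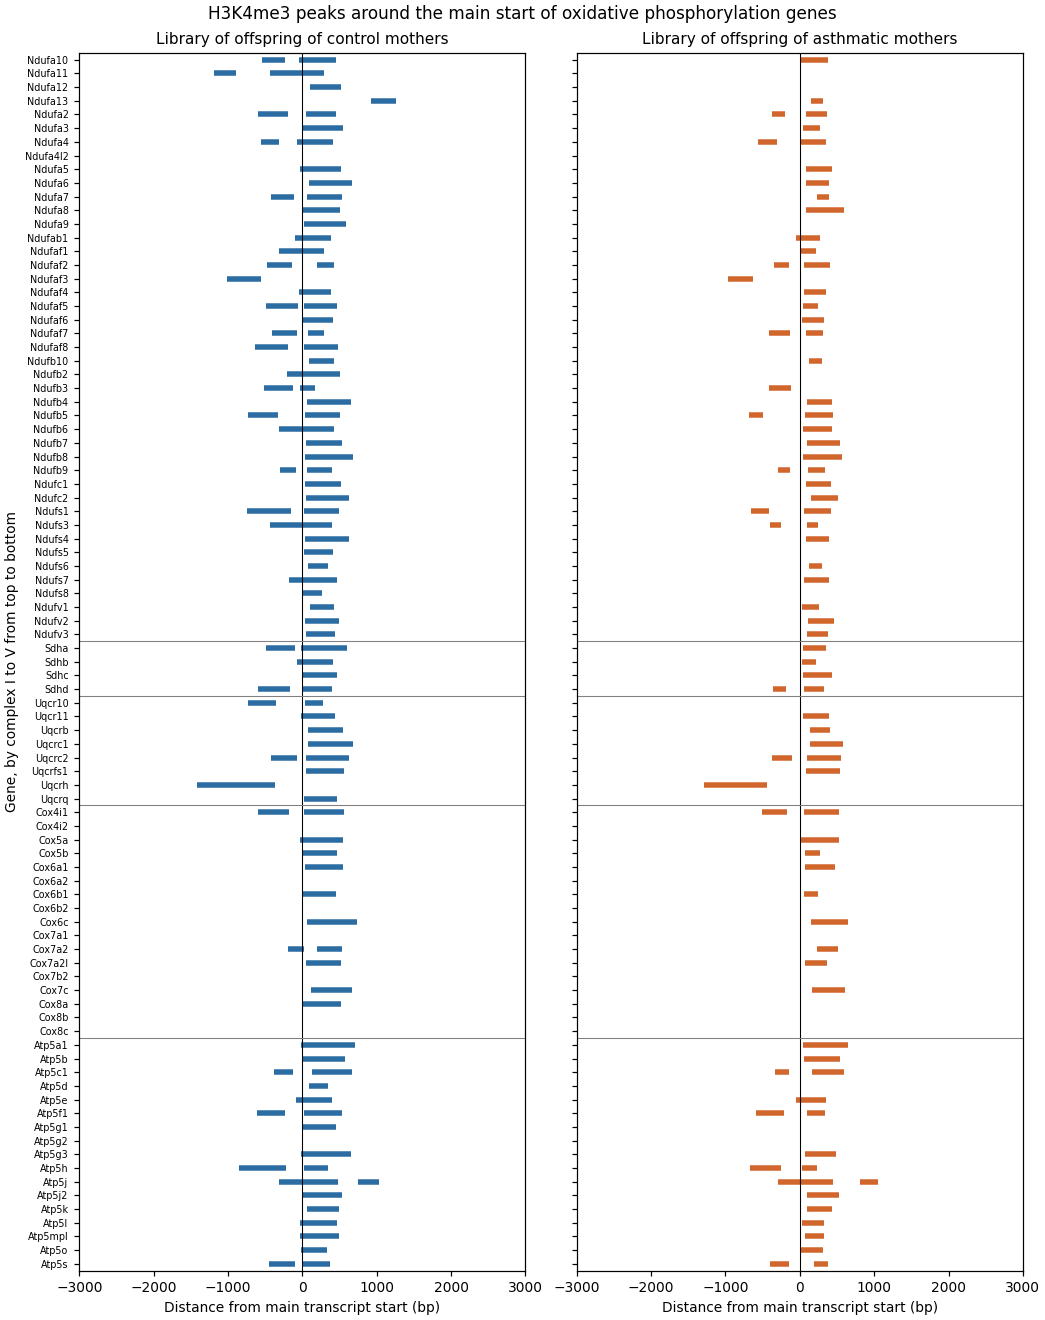
Start peaks of the genes (1 row each apart from a gene not reported here, ordered by complex and symbol, lines between complexes) by distance in bp from the main transcript start, with the gene running to the right, in control offspring (left, blue) and OVA offspring (right, orange). Most rows have a single bar just downstream of the start or a bar on either side of it, the 8 tissue-restricted isoforms have none, and the bars on the right are mostly shorter, with none for the 11 genes without a start peak in OVA offspring. Peaks of Atp5g2 in both lists, the higher peak of Atp5d in control offspring and its only start peak in OVA offspring are not drawn. They lie beyond the left edge of the axis, except that the highest peak of Atp5g2 in control offspring crosses it.

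By complex, marked genes numbered 43 of 44 for complex I, 4 of 4 for complex II, 8 of 8 for complex III, 10 of 17 for complex IV and 17 of 17 for complex V in control offspring. For OVA offspring the counts were 36, 4, 6, 9 and 16. The genes without a peak in OVA offspring were thus 7 (16.3%) of those marked for complex I, 2 (25.0%) for complex III, 1 (10.0%) for complex IV and 1 (5.88%) for complex V, and 0 of 4 for complex II. Over all autosomal protein-coding genes 52.5% were marked in control offspring and 43.7% in OVA offspring. Of those marked in control offspring 17.9% had no start peak in the other list. With so few genes per complex the shares by complex are counts of named genes and were not compared by a test.

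Ranked within their list, the median marked start stood above the middle by height and below it by width. Peaks with gaps of up to 1000 bp were taken as 1 domain, and the median start domain of the marked members was 571 bp wide in control offspring (exact order-statistic 95% interval of the median 505 to 663 bp), beside 663 bp over all marked genes. In OVA offspring it was 358 bp (317 to 437 bp), beside 407 bp. By −log10 q the members had a median percentile of 64.3 among the marked autosomal genes in control offspring (52.9 to 77.0) and of 60.1 (45.6 to 67.4) in OVA offspring. Ranked by the authors' fold the median percentiles were 71.4 (65.3 to 80.6) and 64.6 (53.4 to 74.1). Ranked by domain width they were 39.1 in control offspring, with an interval from 31.1 to the middle of the list, and 41.6 (32.9 to 54.4) in OVA offspring. The intervals by fold in both lists and by −log10 q in control offspring lay above the middle of the list, and the others held or touched the value over all marked genes.

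The number of fragments at each summit was solved from the authors' fold and p-value. The median was 27 fragments for the members and 26 for all marked genes in control offspring, and 17 for both in OVA offspring. Between the lists the number fell in 70 of the 71 genes marked in both, with a median ratio of 0.586 beside 0.611 over all genes. The highest peaks of the lists did not overlap each other in 9 of these genes, whose ratios compare summits at different places. The exception was Ndufaf1, a complex I assembly factor, with 18 fragments in control offspring and 22 in OVA offspring, counts whose 95% Poisson intervals overlap. Start domains were narrower in OVA offspring in 69 of 71 genes, with a median ratio of 0.713 beside 0.664 over all genes. Narrower domains, missing peaks and fewer fragments moved together in that library, over all genes as over the members, and the part of fewer fragments in the other results was not tested.

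**Figure D2:**
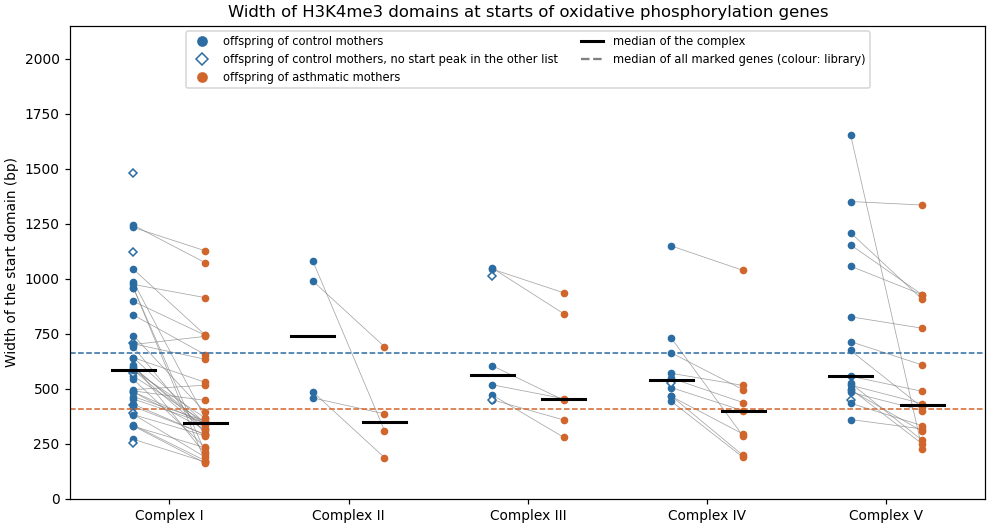
Width of the start domain in bp for each marked gene in control offspring (blue) and OVA offspring (orange), by complex, with a grey line joining a gene's values, a black bar for the median of the complex and dashed lines for the medians of all marked genes, 663 and 407 bp. Nearly all lines fall from left to right, and open diamonds mark the 11 genes with no start peak in OVA offspring.

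Across complexes the median domain in control offspring was 585 bp for complex I, 738 bp for complex II, 562 bp for complex III, 538 bp for complex IV and 557 bp for complex V. The 95% intervals of the medians of complexes I, III, IV and V overlapped (485 to 701 bp for complex I and 465 to 730 bp for complex IV, for example), and the 4 genes of complex II are too few for one. The medians in OVA offspring were 342, 348, 452, 400 and 424 bp. The median ratio of widths was 0.665 for complex I, 0.541 for complex II, 0.799 for complex III, 0.748 for complex IV and 0.816 for complex V.

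By −log10 q, complex IV stood highest in control offspring, with a median percentile of 83.0 (48.9 to 98.5) over its 10 marked genes. Complex I followed at 64.4, complex III at 62.1, complex II at 60.7 and complex V at 57.2. Complex IV also had the highest median in OVA offspring, 67.4, ahead of complex I at 63.3, complex V at 56.5, complex III at 45.6 and complex II at 41.8. The interval of complex IV in control offspring includes the medians of every other complex, so the order of the complexes is a description of these lists.

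**Figure D3:**
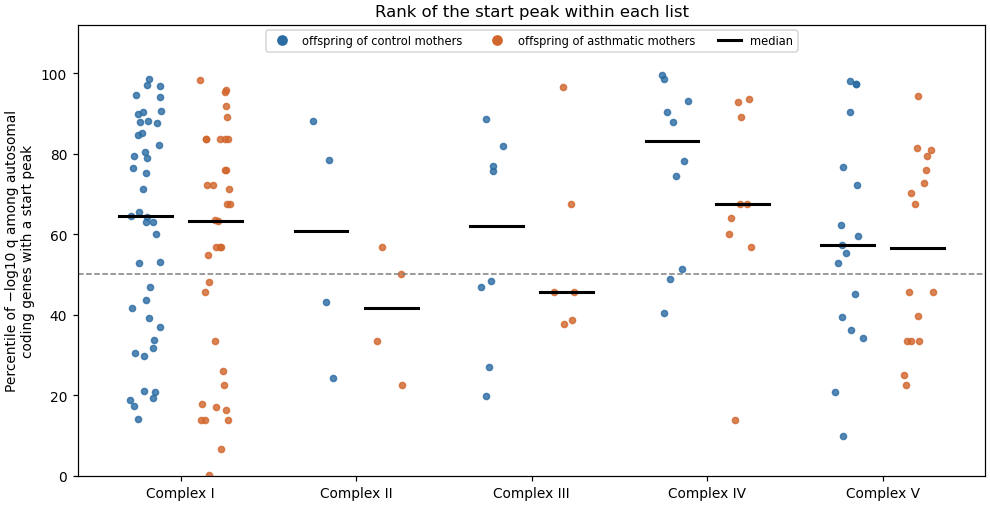
Percentile of the −log10 q of each marked gene's start peak among all marked autosomal protein-coding genes of the same list (vertical axis, dashed line at the middle), by complex, in control offspring (blue) and OVA offspring (orange), with black bars for medians. Complex IV has the highest median in both lists, 83.0 and 67.4, and complex I spans nearly the whole range.

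Complex I is the entry point for electrons from NADH. Its 7 nuclear core subunits, which hold the flavin and the iron-sulphur clusters, were all marked in control offspring with a median percentile of 41.7. The 28 marked accessory subunits had 68.4, which lies within the interval of the core median (29.8 to 98.5). Ndufs3 stood apart among them, with a −log10 q of 27.6 (39 fragments) in control offspring and of 5.17 (12 fragments) in OVA offspring. Its fragment ratio of 0.308 was the lowest of all members, while its domain narrowed from 835 to 655 bp. Ndufv1, which binds NADH, had domains of 329 and 232 bp, and Ndufv2, its partner in the same module, 464 and 353 bp. Ndufs1 had wide domains of 1243 and 1073 bp, and lies 3 bp from Eef1b2 on the other strand, counted here and below between the closest annotated starts of the pair. Ndufs7, which takes part in the ubiquinone site, had domains of 641 and 342 bp. Ndufs8 had the narrowest domain of complex I in control offspring, 255 bp with 23 fragments, and no start peak in OVA offspring, where the nearest peak was 5419 bp away.

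The accessory subunits surround the core, and 28 of 29 were marked in control offspring and 23 in OVA offspring. The share of the 28 without a start peak in OVA offspring was 17.9%, equal to that over all genes. The 5 that were marked in control offspring only were Ndufa9, Ndufa11, Ndufa12, Ndufb2 and Ndufs5. Ndufb2 had the highest −log10 q of the 11 genes in this state, 18.8 with 28 fragments and a domain of 710 bp in control offspring, and its nearest peak in the other list was 11893 bp away. Ndufa11 had the widest domain of complex I, 1480 bp in 2 peaks, shared with Vmac whose start lies 82 bp away on the other strand, and no peak within 43872 bp in OVA offspring. Ndufa12 was the weakest of the 5, with a −log10 q of 8.84 and 17 fragments.

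At Ndufa7, which starts 10 bp from the ribosomal protein gene Rps28, the domain went from 958 bp in 2 peaks to 170 bp in 1 peak, a ratio of 0.177. In control offspring its higher peak lay at −247 bp from the main start, and in OVA offspring its only start peak lay 250 bp downstream. Ndufa8, by contrast, had a domain of 496 bp in control offspring and 516 bp in OVA offspring, a ratio of 1.04. Ndufa4 kept 974 and 914 bp, a ratio of 0.938. Ndufb3 had the highest −log10 q of all members in OVA offspring, 16.9 with 24 fragments, after 21.5 with 32 fragments in control offspring. Ndufb10 had the lowest, 2.74 with 12 fragments, near the threshold of that list at 2.01.

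All 8 assembly factor genes of complex I were marked in control offspring and 7 in OVA offspring, all but Ndufaf8 (12.5% of the 8, beside 17.9% over all genes). Their median percentile of −log10 q was 66.1 (20.9 to 94.6) in control offspring and 83.6 (17.9 to 95.4) in OVA offspring. Ndufaf1 moved from percentile 20.9 to percentile 95.4 while its domain narrowed from 608 to 203 bp, a ratio of 0.334. Its fragments, 18 (exact Poisson 95% interval 10.7 to 28.4) and 22 (13.8 to 33.3), had overlapping intervals. The quartiles over all marked genes in OVA offspring were 14 and 19 fragments, so few fragments separate distant percentiles. Ndufaf5 went from 958 to 211 bp (ratio 0.220), where the peak upstream of the start, on the side of Esf1, was listed in control offspring only. Ndufaf7, which starts 70 bp from Cebpz, had domains of 701 and 738 bp, the highest ratio of all members at 1.05. The summit of the assembly factor genes lay downstream of the main start in 3 of 8 in control offspring, against 33 of 43 for complex I as a whole. In OVA offspring it did so in 4 of 7, against 31 of 36. The 5 with an upstream summit in control offspring were Ndufaf2, Ndufaf3, Ndufaf5, Ndufaf7 and Ndufaf8. Each has another gene that starts within 1000 bp on the other strand, to which the peak may belong.

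Complex II, succinate dehydrogenase, also works in the citric acid cycle, and all of its 4 subunits were marked in both lists. Sdha, the flavoprotein, had the widest domain of the complex in control offspring, 1081 bp in 2 peaks with 19 fragments, and 310 bp with 16 fragments in OVA offspring, a width ratio of 0.287. Sdhb, the iron-sulphur subunit, went from 486 bp and 26 fragments to 187 bp and 14 fragments. The membrane anchor gene Sdhc had 458 bp and 30 fragments and then 386 bp and 14 fragments. Sdhd, the other anchor, had 990 bp and 32 fragments and then 691 bp and 16 fragments, with 2 peaks in both lists. The pairs of values fell in each of the 4 genes, and the gene whose width fell most, Sdha, had the smallest fall in fragments.

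Of the 8 complex III genes, Uqcr10 and Uqcrq, small subunits, were marked in control offspring only. Uqcr10 had a −log10 q of 9.37 with 18 fragments and a domain of 1013 bp, and its nearest peak in the other list lay 38836 bp away. Uqcrq had 10.6 with 21 fragments and 450 bp, with the nearest peak 78485 bp away. Uqcrfs1, the Rieske iron-sulphur protein of the catalytic core, had domains of 518 and 455 bp and a −log10 q of 17.8 and 7.74. Uqcrc1 and Uqcrc2, the core proteins, had domains of 605 and 448 bp and of 1044 and 936 bp. Uqcrc2 had the most fragments of the complex in both lists, 34 and 25. The widest domain in control offspring was that of Uqcrh, 1049 bp and then 841 bp in OVA offspring, in a single peak whose summit lay at −988 and −696 bp from its main start, that is upstream, on the side of Lrrc41, which starts 198 bp away. Uqcr11 and Uqcrq had the narrowest in control offspring, both 450 bp.

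Complex IV had the tallest peak of all members, at Cox7a2, with a fold of 13.2, a −log10 q of 31.8 and 39 fragments in control offspring. Cox7a2 in OVA offspring had a fold of 7.01, a −log10 q of 9.59 and 17 fragments, and its domain went from 730 bp in 2 peaks to 285 bp in 1. Cox7c had a −log10 q of 27.7 and 12.6, with domains of 548 and 437 bp. Cox4i1, the common form of subunit 4, had the widest domains of the complex, 1149 and 1038 bp, and starts 101 bp from Emc8. Cox6b1 had the narrowest in control offspring, 443 bp, and 188 bp in OVA offspring. Cox6a1 had the lower −log10 q of 14.0 in control offspring, percentile 51.4, and 13.7 in OVA offspring, percentile 93.5, so that its place within the lists rose while its fragments fell from 27 to 22. Cox8a had 12.6 with 23 fragments and 528 bp in control offspring and no peak within 11324 bp in OVA offspring. The summit lay downstream of the main start in all 10 marked genes of the complex in control offspring and all 9 in OVA offspring.

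Complex V, ATP synthase, kept 16 of its 17 marked genes. The 1 gene without a start peak in OVA offspring is 5.88% of them, beside 17.9% over all genes. Atp5a1 and Atp5b, the α and catalytic β subunits, had domains of 714 and 608 bp and of 557 and 488 bp, with 35 and 20 fragments and 28 and 18 fragments. The 3 genes for subunit c of the proton-carrying ring encode the same mature protein and differed in their marks. Atp5g1 was marked in control offspring only, with a −log10 q of 9.56, 19 fragments and a domain of 449 bp, and its nearest peak in the other list lay 9702 bp away. At Atp5g2 the widest domain of all members, 1654 bp in 2 peaks, became 224 bp in 1 peak, the lowest width ratio of all at 0.135. The highest peak lay at −3200 and −3148 bp from the start with the most transcripts, at another annotated start upstream, and neither list had a peak within 1000 bp of the former. Atp5g3 had a domain of 674 and 415 bp, with 27 and 22 fragments, and rose from percentile 62.3 to percentile 94.4 within the lists. Atp5o had the narrowest domain of the complex in control offspring, 360 bp, and 317 bp in OVA offspring, under a tall peak of −log10 q 25.6 and 9.59. Atp5s, a coupling factor, kept 827 and 775 bp, a ratio of 0.937. Atp5d, the δ subunit, had its higher peak at −3274 bp from its main start, on the side of Cbarp, with the lowest −log10 q of all members in control offspring, 7.06.

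Atp5j, coupling factor 6, is the member that shares its start with a gene of mitochondrial biogenesis. Its closest annotated start lies 31 bp from one of Gabpa, which encodes the DNA-binding part of the ETS factor GABP (NRF2), itself known as a regulator of respiratory chain genes. Their common domain was 1351 bp wide in control offspring and 1335 bp in OVA offspring, a ratio of 0.988, in 2 peaks in both lists. The −log10 q was 14.8 with 30 fragments and 9.77 with 20 fragments. These fragments belong to different peaks of the domain, with the summit at 888 bp from the main start of Atp5j in control offspring and at −182 bp in OVA offspring. The domain cannot be divided between the pair of genes.

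Shared starts of this kind were common among the members. A protein-coding gene began on the other strand within 1000 bp for 34 of the 90 (37.8%), beside 12.7% of all autosomal protein-coding genes. The share was 42.3% for mitochondrial ribosomal protein genes and 32.4% for the assembly factor genes outside the members. The partner's start nearest to the main start lay upstream in 30 of the 34. Genes with a partner numbered 19 of 44 in complex I, 3 of 4 in complex II, 4 of 8 in complex III, 1 of 17 in complex IV and 7 of 17 in complex V. Several partners are genes of mitochondrial proteins or of translation. Ndufb5 starts 20 bp from Mrpl47 and Ndufs6 29 bp from Mrpl36, both genes of the mitochondrial ribosome. Sdhd starts 98 bp from Timm8b, whose protein helps to import others into mitochondria. A gene's peaks within 1000 bp may belong to its partner, and the lists do not tell them apart.

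Most starts with 2 peaks belonged to these genes. In control offspring 26 members had 2 start peaks (31.7% of those marked, beside 28.4% of all marked genes), and 22 of them (84.6%) had a coding partner, while over all genes 42.4% of those with 2 or more start peaks had one. Among members with a partner 22 of 34 (64.7%) had 2 start peaks, and among those without one 4 of 48 (8.33%). The corresponding shares over all marked genes were 55.7% and 20.9%. In OVA offspring 16 members had 2 start peaks (22.5%, beside 22.9%), and 15 of them (93.8%) had a partner, beside 38.7% over all genes. Median domains were 928 bp with a partner and 517 bp without one in control offspring, beside 869 and 620 bp over all genes. In OVA offspring they were 644 and 342 bp, beside 454 and 396 bp. By height the order was the other way, with a median percentile of −log10 q of 50.8 with a partner and 74.8 without one in control offspring. Over all genes these were 53.1 and 48.4, and in OVA offspring the members had 45.6 and 67.4, beside 53.4 and 49.1. Complex IV, the highest by −log10 q, had 1 gene of 17 with a partner. The part of shared starts in the order of the complexes was not tested. The median width ratio was 0.793 for the 30 genes with a partner and 0.678 for the 41 without one, beside 0.654 and 0.665 over all genes.

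**Figure D4:**
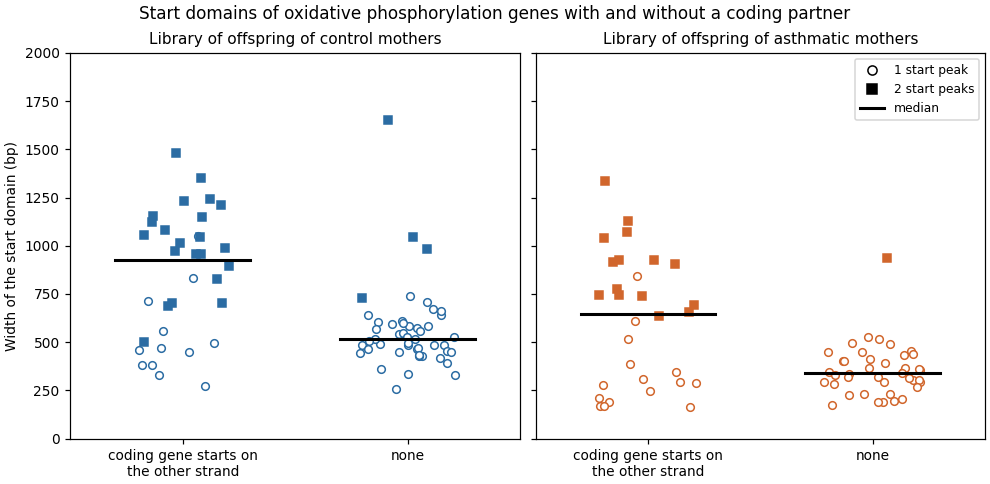
Width of the start domain in bp of the marked genes with and without a protein-coding gene that starts within 1000 bp on the other strand, in control offspring (left) and OVA offspring (right), with filled squares for starts with 2 peaks, open circles for 1 peak and black bars for medians. The squares lie mainly in the group with a partner, at medians of 928 and 644 bp for that group against 517 and 342 bp without a partner.

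The summit of the start peak lay downstream of the main start in 66 of 82 marked members (80.5%) in control offspring, beside 79.7% of all marked genes, and in 60 of 71 (84.5%) in OVA offspring, beside 79.3%. Its median position was 171 bp and 210 bp downstream of the start, beside 186 and 188 bp over all genes. These values of the members were close to those of all genes. The highest start peak in control offspring was overlapped by at least 1 bp of a peak of the other list at 68 of the 71 genes marked in both (95.8%), beside 96.1% of all genes marked in both. The 3 exceptions were Ndufa7, Ndufa13 and Ndufaf5. The highest peaks of the lists overlapped each other in 62 of the 71 genes (87.3%), beside 90.7% of all. In the other 9 the highest peak lay at another place in each list, and these were Atp5c1, Atp5f1, Atp5j, Ndufa4, Ndufb5 and Ndufs1 beside the 3 named. The 75 bases around each summit of the members had no further exact copy on the 21 assembled chromosomes, in either list.

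Loss of the peak followed its height. Marked genes were divided into 3 bins of equal number by −log10 q in control offspring. Among members in the lowest bin, 5 of 14 (35.7%) had no start peak in the other list, beside 41.0% of all genes in that bin. In the middle bin it was 5 of 29 (17.2%), beside 9.18%, and in the highest bin 1 of 39 (2.56%), Ndufb2, beside 3.47%. The 11 genes had a median −log10 q of 12.1 and 23 fragments in control offspring, and the 71 marked in both lists 17.5 and 28 fragments. Their domains were of similar width, 528 and 584 bp at the median.

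Promoters of the members were searched for motifs known from nuclear genes for mitochondrial proteins. A RefSeq promoter of 300 bases was matched for 73 of the 90 members and for 15861 of the 20780 genes. The motif of NRF1 (CGCATGCG) stood in 10 of the 73 (13.7%), beside 2.70% of all promoters, counting both strands. The ETS motif CCGGAAG, which GABP can bind, stood in 17 (23.3%), beside 12.7%. It was more frequent still in promoters of mitochondrial ribosomal protein genes (36.2%), cytosolic ribosomal protein genes (37.1%) and the assembly factor genes outside the members (41.9%). The NRF1 motif stood in 10.1%, 4.84% and 3.23% of these. The YY1 motif AAGATGGCG stood in 7 (9.59%), beside 2.05%, with 6 of the 7 in complex I, and in 11.6% of promoters of mitochondrial ribosomal protein genes. The ERR motif TCAAGGTCA stood in 2 (2.74%), beside 0.340%. For the general motifs the shares were close, with 38.4% beside 36.3% for SP1 (GGGCGGG) and 43.8% beside 38.8% for CCAAT, and TATAAA stood in 9.59% beside 13.1%. The ETS motif ends and the YY1 motif begins with AAG, so these can share bases, and a match describes letters only. The median promoter had 20 CG pairs, beside 15 over all genes and 21 and 22 for mitochondrial and cytosolic ribosomal protein genes, and a ratio of observed to expected CG pairs of 0.833, beside 0.617.

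**Figure D5:**
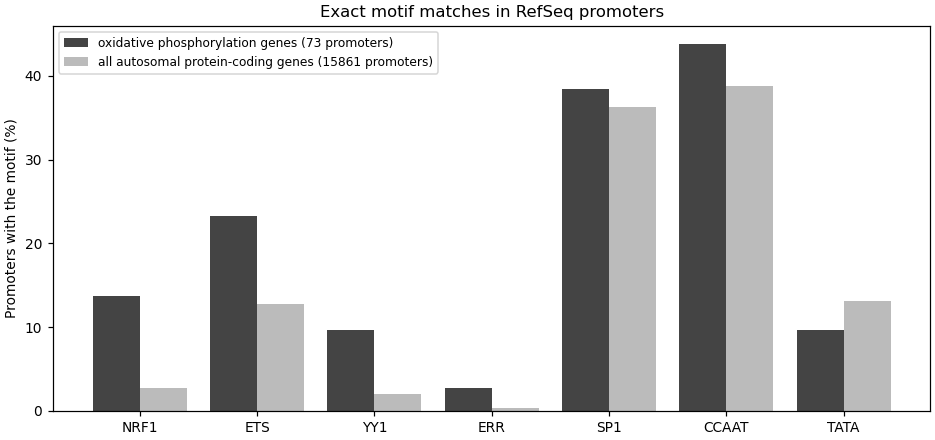
Share of RefSeq promoters (300 bases, 250 before to 50 after the start) with an exact match to each motif on either strand, for 73 oxidative phosphorylation genes (dark) and 15861 autosomal protein-coding genes (light). NRF1, ETS, YY1 and ERR motifs were more frequent in the dark bars, SP1 and CCAAT motifs nearly equal and TATAAA less frequent.

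The 250 bases before the RefSeq start are shown for a gene each of complexes I, III and IV in which the ETS motif lies close to the RefSeq start, with the motif (or its reverse complement CTTCCGG) in capitals and again 5′ to 3′ on the strand of the gene. None of these genes has a coding partner.
Ndufb7, chr8:83566508-83566757, plus strand: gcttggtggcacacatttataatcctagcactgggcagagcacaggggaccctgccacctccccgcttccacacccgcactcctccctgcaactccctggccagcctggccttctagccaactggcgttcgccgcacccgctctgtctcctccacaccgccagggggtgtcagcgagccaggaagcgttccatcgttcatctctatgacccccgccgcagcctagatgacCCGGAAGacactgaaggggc
Uqcr11, chr10:80406822-80407071, minus strand: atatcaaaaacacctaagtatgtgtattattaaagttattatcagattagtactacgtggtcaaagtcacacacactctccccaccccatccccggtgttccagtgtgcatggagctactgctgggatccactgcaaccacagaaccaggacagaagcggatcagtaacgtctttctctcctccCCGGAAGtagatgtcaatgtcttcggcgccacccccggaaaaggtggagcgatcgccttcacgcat
Cox6a1, chr5:115348959-115349208, minus strand: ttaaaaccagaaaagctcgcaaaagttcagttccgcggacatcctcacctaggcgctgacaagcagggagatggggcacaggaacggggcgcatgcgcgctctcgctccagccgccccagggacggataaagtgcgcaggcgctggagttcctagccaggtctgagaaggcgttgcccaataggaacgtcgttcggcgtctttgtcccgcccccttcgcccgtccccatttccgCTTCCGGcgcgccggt
In control offspring all of these 3 genes were marked, with a −log10 q of 19.8 for Ndufb7, 18.0 for Uqcr11 and 14.0 for Cox6a1. In OVA offspring the values were 7.79, 7.07 and 13.7. The ETS motif began 20, 66 and 16 bases before the RefSeq start. That start is not the main start used for the peaks and lies 87, 9 and 23 bp from it, so that the motifs of Ndufb7 and Cox6a1 stand downstream of the main start. A promoter was matched for 10 of the 11 genes marked in control offspring only. Ndufaf8, Ndufs8 and Cox8a (3 of the 10, beside 17 of the 73 members) had the ETS motif in it, Ndufa9 and Ndufaf8 the YY1 motif and Ndufa11 the NRF1 motif.

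Other genes of the pathway were set beside the members. The X-linked subunit genes, outside the rule, were marked 3 of 3 in control offspring, where Ndufa1 had 18 fragments, Ndufb11 19 and Cox7b 11, and only Ndufb11 was marked in OVA offspring, with 14 fragments. Cyc1 and Cycs, the cytochromes c1 and c, were marked in both lists. Of 37 further assembly factor genes of complexes I to V 35 were marked in control offspring and 34 in OVA offspring, with Cox18 and Coa7 in the former alone, Cox16 in the latter alone and Sdhaf1 in neither. All 12 enzyme genes of the citric acid cycle were marked in both lists. Mitochondrial ribosomal protein genes, 78 in number, resembled the members in control offspring with 75 marked, and 16 of these (21.3%) had no start peak in the other list. Cytosolic ribosomal protein genes had 78 of 88 marked in control offspring, and 1 of these (1.28%) was without a start peak in OVA offspring. Both counts stand beside 13.4% for the members and 17.9% over all genes.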

How the data were processed

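H3K4me3 CATCH-seq was analysed for 1 library per group, mapped by the treatment label of each sample. Per the study's methods the authors trimmed paired reads with Trim Galore and Cutadapt, aligned them to GRCm38 (mm10) with Bowtie 2 and removed duplicates. The study's reporting summary says that no peak calls were made on the ChIP-seq data, which is at odds with the deposited lists. How these were called, and whether against an input library, is not given in the sources used here. The authors' lists give for each peak a score, a ratio (fold of the summit signal over background), a −log10 p-value and a −log10 q-value, with minimum −log10 q of 2.02 and 2.01. The deposited score was not used. Values of these columns carry no common scale across the libraries, and percentiles were taken within a list. Values printed side by side for both lists, and ratios of fragments solved from them, are not scaled for depth.

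A peak within 1000 bp of any GENCODE transcript start counted, the peak of highest −log10 q stood for the gene, and peaks up to 1000 bp apart were joined. The main start is the start with most transcripts beginning within 100 bp. Fragments at summits were solved from fold and p under a Poisson model with 1 added to signal and background (largest misfit 0.00045 in −log10 p), which assumes peaks called without a control. They are derived, not the authors' values. Promoters are RefSeq's, matched by symbol or synonym, and motifs were exact matches on both strands. The peak and fragment steps were tested on simulated data. No test was run, since neither group had a replicate.

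The members, gene lists and settings were chosen with earlier results of these data known. Genes named are those unmarked in a list, tissue-restricted isoforms and their counterparts, complex II, subunit c and catalytic subunits, the widest and narrowest domain of each complex, the 5 highest and 5 lowest width ratios and the member sharing a start with a biogenesis gene. A gene that this rule names is counted in the totals but not reported here by itself. Others named hold an extreme value, an X-linked or comparison role or a printed sequence, and were chosen after their values were seen. Calculations ran in Python 3.11.15 (scipy 1.17.1, numpy 2.4.6, pandas 2.3.3), and figures were drawn with matplotlib 3.10.9.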

Additional observations from a re-analysis of the deposited data

How the results depend on the processing

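Of 39 alternative values 32 stayed near those reported (a count within 1.5 times of the reported one, a median inside its 95% interval), for distances of 500 and 2000 bp, the gene's 5′ end alone, a −log10 q of at least 5, peaks joined up to 3000 bp apart, ranking by fold and an overlap of 50% of both peaks, apart from the cases named here. With the 10000 peaks of highest −log10 p of each list, 18 of the 90 genes were marked in OVA offspring, 49 in control offspring only and 1 (Ndufaf1) in OVA offspring only, while 66, not 82, were marked in control offspring. Over all genes the share marked fell likewise, to 9.85% in OVA offspring and 33.8% in control offspring. The shares marked in control offspring only and in OVA offspring only were 24.9% and 0.919%. The cause was not tested. With 50% of both peaks shared, 56 start peaks in place of 68 overlapped. Within 500 bp Ndufa13 was marked in OVA offspring only (1 gene), because its peak in the other list lay farther away. Without joining, the median width in control offspring was 488 bp, since single peaks are narrower. Ranked by domain width, the median percentiles were 39.1 and 41.6. No paired analysis was possible because neither group held more than a single library. Without read totals for each library the depth could not be equalised, and its part in which starts were listed was not tested.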

Other observations

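Of 13 regulators of mitochondrial biogenesis, all were marked in control offspring and 9 in OVA offspring, beside 52.5% and 43.7% of all autosomal protein-coding genes. The share marked in control offspring that had no start peak in OVA offspring was 30.8%, beside 17.9% of all genes. The 4 without a start peak in the latter were Ppargc1a and Ppargc1b, coactivators of respiratory genes, Tfb1m, an rRNA methyltransferase of mitochondria, and Polrmt, the mitochondrial RNA polymerase. Ppargc1b had a domain of 1734 bp with a −log10 q of 14.3 in control offspring, Ppargc1a 776 bp with 16.0, Tfb1m 435 bp with 11.7 and Polrmt 293 bp with 8.84. Pprc1, related to the coactivators, was marked in both lists, with domains of 649 and 896 bp and with 22 and 21 fragments. Genes for DNA-binding regulators had a start peak in both lists, with domains of 1436 and 615 bp for Nrf1, 2334 and 1432 bp for Yy1 and 679 and 375 bp for Esrra. Tfam, which packages mitochondrial DNA, had domains of 778 and 562 bp.

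Processed pseudogenes named after members numbered 12 in the annotation, and 1 of them, Atp5c1-ps, had a start peak in control offspring. Atp5c1-ps and Atp5l-ps2 had a start peak in OVA offspring. Ndufb1-ps, which the annotation calls a bidirectional promoter lncRNA, had 1 start peak in control offspring and 2 in OVA offspring.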
